A study of Mus musculus with 2 samples.

Results

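The cells described here are those of the control culture on days 3 and 4 of differentiation with GM-CSF, the growth factor that was given to all cultures. They were chosen from the control library as barcodes with a single day hashtag, at least 500 detected genes and under 15% mitochondrial UMIs (unique molecular identifiers, each standing for 1 captured transcript). Of 25221 such cells in the whole series, 4352 belonged here, 2089 of day 3 and 2263 of day 4. The comparison asks how the unexposed culture of day 4, a day after vehicle had been added, differed from that of day 3. It covers all genes and all cells.

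Lineage-depleted bone marrow progenitors had been taken from C57BL/6 mice aged 8 to 10 weeks and grown with GM-CSF at 20 ng/ml, with fresh medium holding 40 ng/ml on day 2. Part of the medium was replaced on day 3, when the control cultures received albumin as vehicle, while the cultures of the other library received 300 µM heme bound to albumin. The day 3 culture stands before and the day 4 culture after this addition, so that the vehicle, the fresh medium and a further day of culture cannot be told apart. The study's outline has cultures started on different days and harvested together. Differences between separately started cultures cannot be told apart from these either. Each day was 1 culture, marked with a DNA-barcoded antibody (hashtag) and pooled at equal cell numbers with those of days 0, 5 and 7 into 1 library, so cell yields were not measured. The labels name no genetic change and no separate donor animals for these cultures.

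GM-CSF signals through a receptor that activates STAT5 and sustains granulocyte and monocyte precursors. Granulocyte-monocyte progenitors fill primary (azurophilic) granules with elastase, proteinase 3, myeloperoxidase and cathepsin G. Neutrophils then make secondary and tertiary granules, switch off the primary granule genes and leave the cell cycle, while monocyte-derived cells of such cultures turn into macrophages and into dendritic cells that carry MHC class II and secrete Ccl17 and Ccl22.

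The day 3 cells carried 35641351 UMIs in all and a median of 15770 UMIs and 3508 genes per cell. The day 4 cells carried 31686612 UMIs and a median of 12016 UMIs and 2739 genes. The median share of ribosomal protein UMIs was 21.6% on day 3 and 11.7% on day 4. The libraries shared 112 barcodes, and 21 of the 4352 cells had a barcode that was also a kept cell of the heme library. There was no replicate culture, so no p-value is given, differences have no replicate check, and all intervals (95%) cover counting error only. In pooled UMIs, fewer cells of a type and less RNA of a gene per cell cannot be told apart, and shares and levels within classes of cells are therefore given beside the pooled values.

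Neutrophil-like cells made up a larger share of the culture on day 4 than on day 3, and progenitor-like cells a smaller one. Cells of both days were clustered together into 18 clusters and named from marker genes. Neutrophil-like clusters held 32.8% of the cells on day 3 (30.8% to 34.9%) and 57.8% on day 4 (55.7% to 59.8%), a difference of 25.0 percentage points (22.0 to 27.8). When each cell was instead given the class of its highest marker score, the shares were 24.3% and 46.9%. Granulocyte-monocyte progenitor-like cells, led by Elane, Mpo and Prtn3, held 14.3% (12.8% to 15.9%) and 4.15% (3.37% to 5.06%). Monocyte-like cells held 3.35% and 1.33%, and basophil or mast cell-like cells 1.15% and 0.795%. Dendritic cell-like cells held 6.85% (5.80% to 8.01%) and 7.42% (6.38% to 8.58%), whose difference of 0.578 points (-0.99 to 2.14) was within counting error. This value depended on the clustering, with 8.54 points at a lower resolution and 4.99 points with 30 principal components. With cell cycle genes left out of the clustering, the class held 0.383% and 2.17%. Clusters that the naming rule left without a class held 41.6% and 28.5%, though several carried raised markers of a class. Among them cluster 16 carried macrophage markers, cluster 13 dendritic cell and macrophage markers, and cluster 14 primary granule genes. Cluster 13 (2.92% and 9.10%) is thus not in the dendritic cell-like share, nor cluster 14 (7.66% and 2.17%) in the progenitor-like share.

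**Figure D1:**
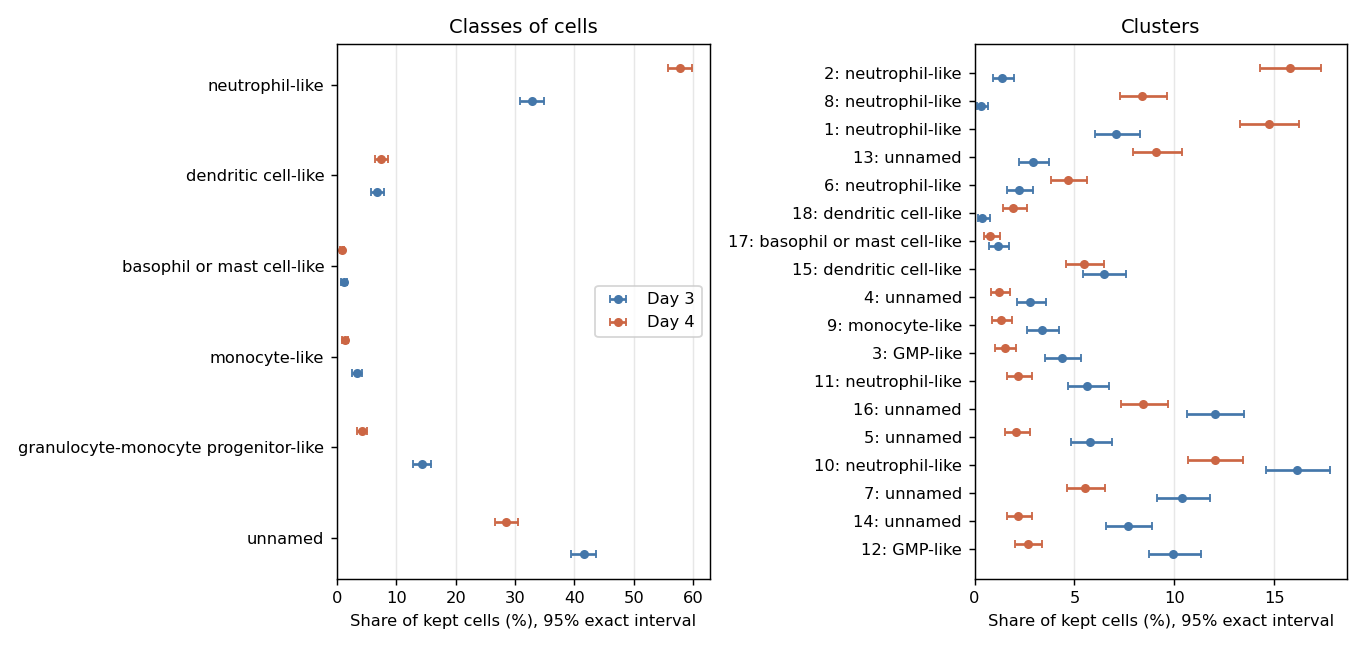
Share of kept cells (%) in each class (left) and in each of the 18 clusters (right) on day 3 (blue) and day 4 (orange), with exact 95% binomial intervals. The neutrophil-like share went from 32.8% to 57.8%, and cluster 2 from 1.39% to 15.8%, while clusters 12 and 14 were smaller on day 4.

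The neutrophil-like gain lay in particular clusters. Cluster 2, led by Mmp9, Retnlg and Mmp8, held 29 cells on day 3 and 357 on day 4 (1.39% and 15.8% of the culture). Cluster 8, led by the same genes together with Fpr1 and Il1rn, held 7 and 190 cells. Cluster 1, led by Ceacam10 and Ltf, went from 7.08% to 14.7%. The clusters led by Ngp, Camp and Fcnb were smaller on day 4, cluster 10 at 16.1% and 12.0% and cluster 11 at 5.65% and 2.17%. Within the neutrophil-like class, clusters 10 and 11 thus held 49.2% and 17.2% of the cells on day 3 but 20.8% and 3.75% on day 4, and clusters 2 and 8 held 4.23% and 1.02%, then 27.3% and 14.5%. The median neutrophil-like cell carried 11667 UMIs on day 3 and 7765 on day 4, so the class made up 23.7% and 38.7% of all UMIs. Among the rest, cluster 13, led by Cd36, Ptx3, Ccl4 and Ccl17, went from 2.92% to 9.10%, and cluster 18, led by Il4i1, Fscn1 and Ccr7, from 0.383% to 1.94%. These leading genes define the clusters and are no finding between them.

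More genes were higher than lower on day 4 against day 3 of the same library, but not against day 3 of the heme library, where 123 were higher and 383 lower. Of 7462 genes reaching 10 CPM (UMIs scaled to the same total in each culture) in either culture, 185 (2.48%) were at least 2-fold higher and 29 (0.389%) at least 2-fold lower, 2.87% in all. The interval lay wholly past 2-fold for 137 and 18 of these. At least 4-fold differences were found for 38 genes that were higher and 3 that were lower. The median log2 ratio over all tested genes was -0.10. For scale, day 3 of the heme library had seen no heme. It differed from day 3 of the control library by 2-fold or more for 99 of 7894 genes upward (1.25%) and 3 downward (0.0380%). The median log2 ratio was 0.34. Its cells were deeper, at a median of 20197 UMIs against 15770. The labels do not say whether the day 3 cells of both libraries came from separate cultures.

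**Figure D2:**
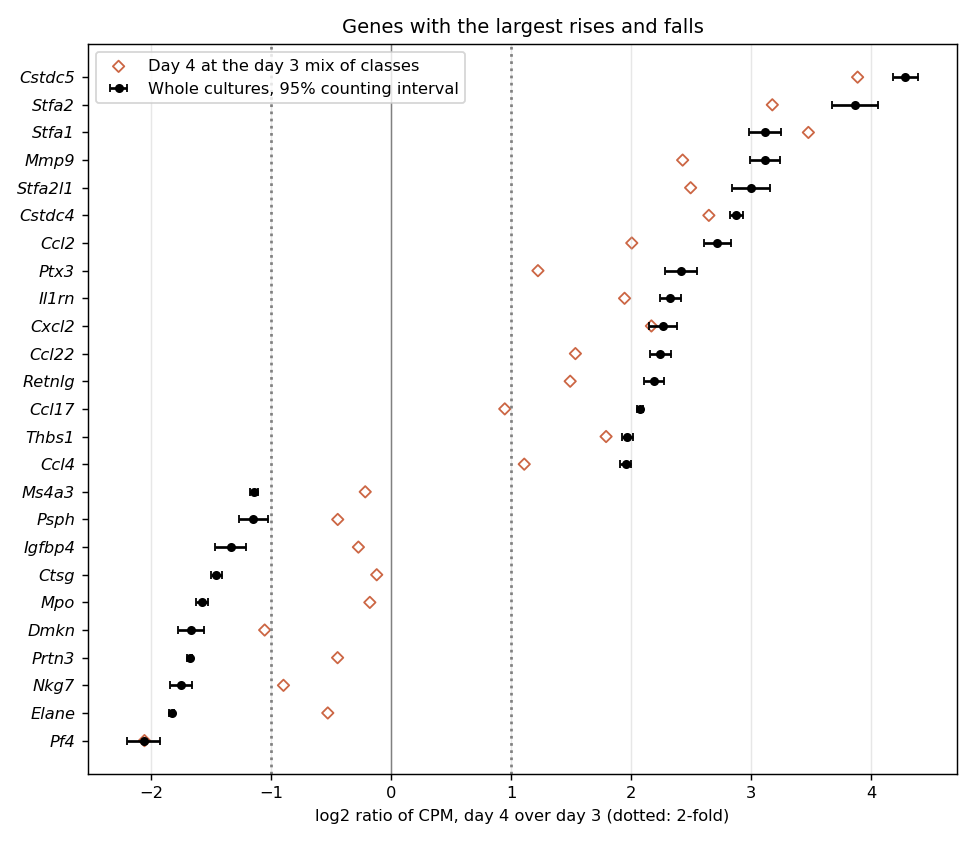
The 15 genes with the largest rises and the 10 with the largest falls, as log2 ratio of CPM (day 4 over day 3). Black points with bars are whole cultures with 95% counting intervals, orange diamonds the day 4 levels reweighted to the day 3 mix of classes, and dotted lines mark 2-fold. The stefin genes stay past 2-fold after reweighting, whereas the diamonds of Elane, Prtn3, Mpo and Ctsg lie between -1 and 0. The latter genes are markers that named the progenitor-like class.

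The primary granule genes were the lowest of all lists with several abundant members. Their list had 8 members with enough UMIs, of which 6 were at least 2-fold lower and 2 were not, with a median log2 ratio of -1.30. Over all tested genes 0.389% were at least 2-fold lower. Elane, neutrophil elastase, stood at 2465 CPM on day 3 and 694 CPM on day 4 (ratio 0.281, 0.277 to 0.286). Prtn3, proteinase 3, stood at 2408 and 752 CPM (ratio 0.312, 0.308 to 0.317). Mpo, myeloperoxidase, stood at 382 and 128 CPM (ratio 0.335, 0.323 to 0.347), and Ctsg, cathepsin G, at 407 and 148 CPM (ratio 0.364, 0.352 to 0.376). Ms4a3, a membrane protein of granulocyte-monocyte progenitors, stood at 812 and 367 CPM. Serpinb1a, an inhibitor of these proteases, was nearly level at 558 and 482 CPM. After thinning every cell to 3000 UMIs, Elane was detected in 41.7% of the cells on day 3 and 18.8% on day 4 (59.2% and 33.7% without thinning). Dendritic cell-like cells, which should lack it, gave 6.43% and 8.93% after thinning, at median depths of 18641 and 18489 UMIs.

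These genes were spread over many cells, and the cells that held them were fewer on day 4. Of the Elane UMIs, 50% lay in 142 cells on day 3 and in 48 cells on day 4, and for Mpo in 96 and 26 cells. Within the progenitor-like class, which clusters 12 and 3 held on both days (208 and 91 cells, then 60 and 34), Elane stood at 10016 CPM on day 3 and 6661 CPM on day 4. In that class Mpo stood at 1388 and 944 CPM, and the 8 primary granule members had a median log2 ratio of -0.24. None of the 8 was 2-fold lower, in a class where 0.415% of all 6748 tested genes were. In neutrophil-like cells Elane stood at 518 and 211 CPM (ratio 0.408, 0.388 to 0.428) and Prtn3 at 826 and 312 CPM. When the day 4 levels of each class were weighted by the day 3 share of UMIs of that class, the list's median log2 ratio was -0.22 in place of -1.30. Elane, Prtn3, Mpo and Ctsg are among the markers that named the progenitor-like class. Holding its share fixed therefore draws their ratios towards 0 in part by construction. The other genes in this group of falls were Nkg7, a granule membrane protein, at 128 and 38.1 CPM, Dmkn at 86.6 and 27.2, Igfbp4, an insulin-like growth factor binding protein, at 52.9 and 21.0, and Psph, an enzyme of serine synthesis, at 56.6 and 25.5.

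Elane (chr10:79886247-79888215) and Prtn3 (chr10:79874476-79883174) are neighbours on the forward strand of GRCm38. Their promoters and those of Mpo and Cxcl2 are shown as examples that hold a match. Ctsg, Ms4a3 and Nkg7, which were also lower, held no match to any of the letters searched and are not shown. The 250 bases before the RefSeq start of each gene (GRCm38.p6) were searched on both strands for GAGGAAGT, a sequence bound by the myeloid factor PU.1, for TTGCNNAA (C/EBP), for GGG, any 3 bases and TTCC (NF-kB) and for AACGGT (MYB). TATAAA was searched on the gene's strand only. Capitals mark a match, positions count back from the start, and bases that GENCODE places in an exon are left out of what is printed. Elane is given as chr10:79886062-79886246 with GAGGAAGT from position -85, Prtn3 as chr10:79879417-79879613 with the same letters from -95, and Mpo as chr11:87793534-87793580 from -224. Cxcl2, which was higher on day 4, is given as chr5:90903649-90903870 with 3 matches to the NF-kB letters, of which 2 overlap. All 4 lie on the forward strand.
Elane: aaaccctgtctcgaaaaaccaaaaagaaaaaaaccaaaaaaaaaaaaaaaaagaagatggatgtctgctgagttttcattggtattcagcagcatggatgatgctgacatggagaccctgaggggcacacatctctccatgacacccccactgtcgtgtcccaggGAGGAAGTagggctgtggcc
Prtn3: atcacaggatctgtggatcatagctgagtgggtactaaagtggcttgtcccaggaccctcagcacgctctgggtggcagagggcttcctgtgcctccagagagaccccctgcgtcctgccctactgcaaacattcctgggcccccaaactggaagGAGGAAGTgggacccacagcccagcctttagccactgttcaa
Mpo: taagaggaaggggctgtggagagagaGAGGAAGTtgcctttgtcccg
Cxcl2: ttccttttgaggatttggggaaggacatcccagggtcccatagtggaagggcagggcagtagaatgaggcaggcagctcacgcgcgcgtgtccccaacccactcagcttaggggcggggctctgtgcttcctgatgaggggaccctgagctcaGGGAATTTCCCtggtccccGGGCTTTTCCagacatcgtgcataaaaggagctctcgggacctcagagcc
GAGGAAGT was found in 4 of the 10 genes named for their falls (Elane, Prtn3, Mpo and Pf4) and in 0 of the 11 genes named for their rises that had an entry, against 2.44% of 27025 promoters of the same length. TTGCNNAA was found in 2 and 4 of these genes (9.55% of all promoters), the NF-kB letters in 0 and 1 (4.60%), TATAAA in 1 and 0 (8.12%) and AACGGT in none of either (2.79%). The fall of Pf4 rested on very few cells, as given below. A match describes the letters only.

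Genes of late neutrophil maturation were higher on day 4, more so than those of secondary granules. Of 18 mature neutrophil genes, 10 were at least 2-fold higher and none lower (median log2 ratio 1.05), beside 2.48% and 0.389% of all tested genes. The median was 0.81 at the day 3 mix of classes and 0.35 at the day 3 mix of clusters. Mmp9, a gelatinase of tertiary granules, stood at 16.8 CPM on day 3 and 146 CPM on day 4 (ratio 8.67, 7.96 to 9.45). Retnlg, a resistin-like protein of neutrophils, stood at 42.5 and 194 CPM (ratio 4.57, 4.32 to 4.84). Mmp8, neutrophil collagenase, stood at 131 and 377 CPM, and Cxcr2, the receptor that draws neutrophils out of the marrow, at 4.99 and 16.3 CPM. The calprotectin genes S100a8 and S100a9, the most abundant of the list, stood at 42839 and 61522 CPM and at 38139.5 and 54783 CPM.

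Secondary granule genes differed less, with 3 of 12 at least 2-fold higher (2.48% of all tested genes) and a median log2 ratio of 0.61. The median was 0.20 at the day 3 mix of classes and 0.01 at the day 3 mix of clusters. Ltf, lactoferrin, stood at 1965 and 3714 CPM and Lcn2, which binds bacterial siderophores, at 3459.9 and 5964 CPM. Camp, the cathelicidin, stood at 4363 and 5814 CPM, whereas Ngp was level at 6196 and 6455 CPM. Olfm4, which marks a subset of neutrophils, was the highest of the list by ratio, at 25.4 and 72.4 CPM. The chitinase-like Chil3 stood at 2080.0 and 4179 CPM, at the 2-fold limit.

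Within neutrophil-like cells, 275 of 6435 genes (4.27%) were at least 2-fold higher and 57 (0.886%) lower, while the clusters that held the class changed as given above. Mmp8 stood at 92.4 and 710 CPM in this class (ratio 7.68, 7.14 to 8.27), Fpr1, the formyl peptide receptor, at 3.90 and 85.4 CPM (ratio 21.9, 15.5 to 31.9), and the chemokine Ccl6 at 412 and 2182 CPM. Thbs1, thrombospondin 1, which binds matrix and cell surfaces, stood at 224 and 1210 CPM. The DNA replication genes Dut and Lig1 were lower there, at 188 and 86.0 CPM and at 91.7 and 40.9 CPM. In cluster 2 by itself, Mmp9 stood at 1791 CPM on day 3 and 1221 on day 4 and Retnlg at 4075 and 1601 CPM, so neither was higher on day 4 there. In cluster 10, which held more cells on both days together, Mmp9 stood at 10.4 and 62.1 CPM (ratio 5.97, 4.39 to 8.26), and in cluster 1 at 167 and 138 CPM. With the day 3 mix of clusters, Mmp9 had a log2 ratio of 0.63 and Retnlg of -0.45, against 2.43 and 1.49 with the day 3 mix of classes. Thbs1 was higher on day 4 in every neutrophil-like cluster, from 469 to 1295 CPM in cluster 1, 163 to 570 CPM in cluster 10 and 1627 to 2581 CPM in cluster 2, and the progenitor-like class stood at 129 and 304 CPM. In the whole culture it stood at 153 and 600.0 CPM, and thinned cells with a UMI of it made up 27.8% on day 3 and 57.3% on day 4 (57.3% and 77.9% without thinning).

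Among genes reaching 50 CPM, the largest ratios were those of Cstdc5 and Stfa2, members of the stefin genes, a family of cysteine protease inhibitors that sit side by side on chromosome 16 (chr16:36156811-36455392). All 6 members with enough UMIs were at least 2-fold higher (median log2 ratio 3.49). Cstdc5 stood at 22.8 CPM on day 3 and 446 CPM on day 4 (ratio 19.5, 18.2 to 21.0). Cstdc4 stood at 84.3 and 619 CPM, Stfa1 at 15.1 and 131, Stfa2 at 6.57 and 95.5, Stfa2l1 at 10.8 and 86.0, and Stfa3 at 1.35 and 39.7. The genes are close copies, so UMIs could be split among them. In their last 500 transcript bases, 0% (Cstdc4, Stfa3) to 16.2% (Cstdc6) of 91-base windows also occur in another member, with 13.9% for Cstdc5.

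Few cells carried this signal. Cstdc5 was detected in 156 cells on day 3 and 240 on day 4, and 12 of the day 4 cells held 50% of its UMIs, the highest 1158 UMIs by itself. On day 3 the corresponding number was 5 cells. Cluster 6, which Cstdc5 and Stfa1 lead and which held 46 and 106 cells, contained 74.1% of the Cstdc5 UMIs of day 4, and there Cstdc5 stood at 287 CPM on day 3 and 5495 CPM on day 4. Cluster 6 carried Ngp and Camp near the level of cluster 10 and Mki67, a marker of cycling cells, at 384 and 328 CPM. In the progenitor-like class Stfa1 also stood at 16.8 and 632 CPM. With the top cell of each day left out, an alternative chosen after seeing the data, the ratio of Cstdc5 was 20.7 and that of Stfa1 13.9 (against 8.67 with all cells), so the direction did not rest on 1 cell. Stefin genes stood higher on day 4 within neutrophil-like cells, progenitor-like cells and at the day 3 mix of classes (list median log2 ratio 3.33).

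**Figure D3:**
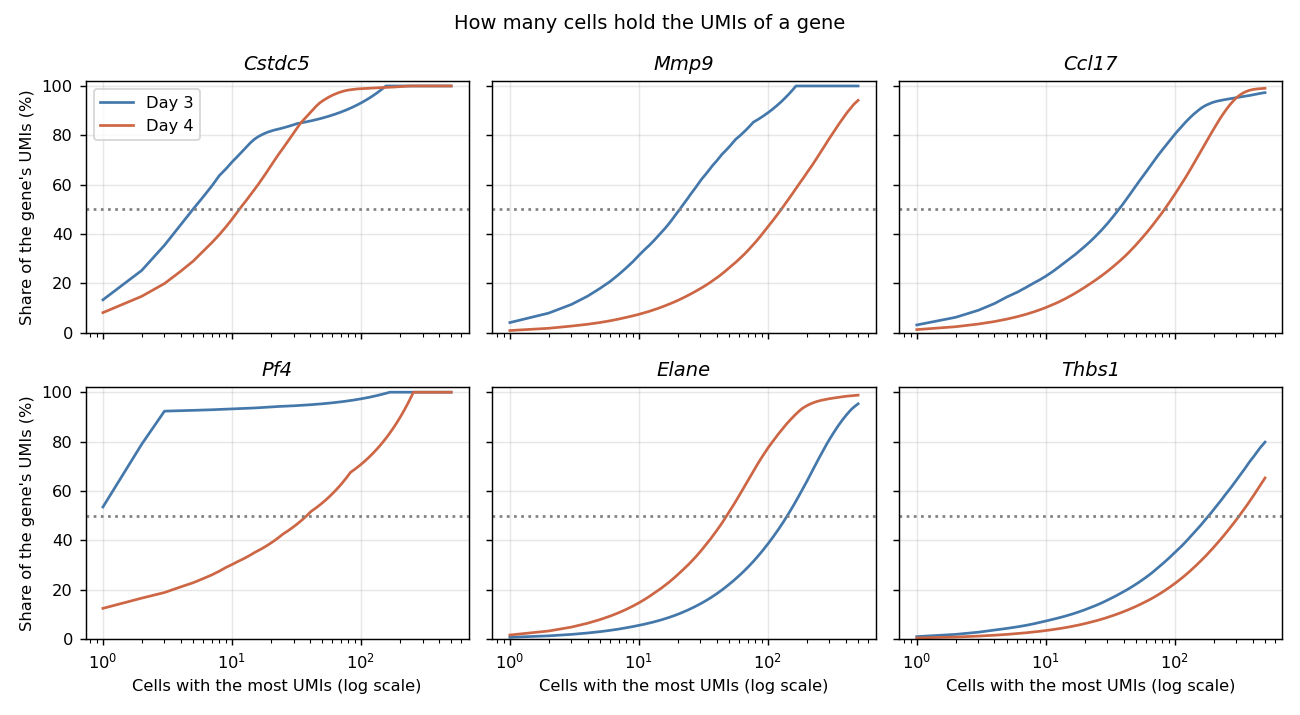
Share of a gene's UMIs (%) held by its top cells, from 1 to 500 cells ranked by UMIs of that gene (log axis), on day 3 (blue) and day 4 (orange), with 50% dotted. Cstdc5 reaches 50% within 12 cells on day 4, Pf4 within 1 cell on day 3, and Thbs1 only after 317 cells on day 4.

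Chemokine and cytokine genes made up the list with the most members past 2-fold. Of 20 members reaching 10 CPM, 16 were at least 2-fold higher and 1, Pf4, lower (median log2 ratio 1.73 over 28 members). Over all tested genes 2.48% were higher and 0.389% lower. Ccl17, a ligand of the chemokine receptor Ccr4 found on T cells, stood at 526 CPM on day 3 and 2219 CPM on day 4 (ratio 4.22, 4.15 to 4.28). Ccl22, its neighbour on chromosome 8 (chr8:94745590-94751699, with Ccl17 at chr8:94810453-94812036) and a ligand of the same receptor, stood at 35.7 and 169 CPM (ratio 4.73, 4.45 to 5.03). Ccl2, which attracts monocytes through Ccr2, stood at 20.0 and 132 CPM (ratio 6.58, 6.08 to 7.14), and Ccl4, an inflammatory chemokine, at 134 and 519 CPM. The neutrophil attractants Cxcl2 and Cxcl3 stood at 20.6 and 99.0 CPM and at 3.06 and 30.5 CPM. Il1rn, the antagonist of interleukin 1, stood at 35.5 and 178 CPM, beside Il1b at 19.5 and 64.5 and Tnf at 48.8 and 104. Ptx3, a soluble pattern recognition protein, stood at 16.1 and 85.9 CPM, and is no member of the list. Spp1, osteopontin, stood at 138 and 456 CPM.

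The chemokine UMIs lay in different clusters. Ccl17, Ccl2, Ccl4 and Ptx3 are among the leading genes of cluster 13, and Ccl22 of cluster 18. Their shares there thus restate in part how the clusters were formed. Of the day 4 UMIs, cluster 13 held 63.1% for Ccl17, 61.4% for Ccl2, 64.7% for Ccl4 and 73.8% for Ptx3, while cluster 18 held 49.0% for Ccl22 and cluster 2 held 22.2% for Il1rn. Ccl17 was higher within clusters as well, at 2574 and 6885 CPM in cluster 15, a dendritic cell-like cluster, and at 6540 and 9058 CPM in cluster 13, but not in cluster 18, at 3750 and 3585 CPM. Ccl2 stood at 20.5 and 294 CPM in cluster 16, which is led by Fabp4, Wfdc17 and Mrc1, at 23.8 and 190 CPM in cluster 7, and at 249 and 522 CPM in cluster 13. Ccl4 stood at 43.3 and 581 CPM in cluster 7 and at 425 and 1096 CPM in cluster 16. In cluster 16 the elastase of macrophages, Mmp12, stood at 279 and 1538 CPM. In neutrophil-like cells the level of Ccl17 was 33.0 and 39.4 CPM and that of Ccl2 6.27 and 8.32 CPM. At the day 3 mix of classes the list's median log2 ratio was 1.18, and at the day 3 mix of clusters 1.04. Ccl17 then stood at log2 ratios of 0.95 and 1.00, Ccl2 at 2.01 and 2.00, and Ccl22 at 1.54 and 0.63.

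Dendritic cell genes were mostly higher in the whole culture. Of 13 members reaching 10 CPM, 9 were at least 2-fold higher and 1 lower (median log2 ratio 1.18 over 19 members, of which Ccl17, Ccl22, Ccl5 and Tnfsf9 are also in the list above). Over all tested genes, 2.48% were higher and 0.389% lower. The list's median was 0.66 at the day 3 mix of classes and 0.27 at the day 3 mix of clusters. Fscn1, which bundles actin in mature dendritic cells, stood at 3.90 CPM on day 3 and 22.7 CPM on day 4, Ccr7, the receptor that guides them to lymph nodes, at 4.10 and 19.4, and Il4i1, an amino acid oxidase, at 8.92 and 40.2. Itgax, encoding CD11c, stood at 41.1 and 110.5 CPM and the lectin Mgl2 at 82.8 and 232. The lectin Cd209a was lower, at 20.7 and 8.96 CPM, and Xcr1 and Clec9a, which mark cross-presenting dendritic cells, were near the detection limit, at 0.926 and 0.252 CPM and at 1.46 and 0.537 CPM. Cluster 18 held 91.6% of the Ccr7 UMIs and 91.2% of the Fscn1 UMIs of day 4 in its 44 cells, though both genes lead that cluster.

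The dendritic cell-like class combined cluster 15, with 135 of its 143 cells on day 3 and 124 of 168 on day 4, and cluster 18, with 8 and 44. Within the class 203 of 7622 genes (2.66%) were at least 2-fold higher and 81 (1.06%) lower. Ccl22 stood at 130 and 841 CPM and Ccr7 at 28.7 and 162 CPM in the class, and both clusters were followed apart. Ccl22 stood at 22.1 and 122 CPM in cluster 15 (ratio 5.52, 4.21 to 7.33) and at 2962 and 3984 CPM in cluster 18. Ccr7 stood at 734 and 856 CPM in cluster 18. Lower genes of the class were followed in cluster 15 alone. There Irf8, a transcription factor of dendritic cells and monocytes, stood at 249.9 CPM on day 3 and 92.3 CPM on day 4, Itgae, encoding CD103, at 78.2 and 20.5, and Hpgds, a prostaglandin D synthase, at 77.1 and 19.8. Id1 and Id3, inhibitors of helix-loop-helix factors, stood at 269 and 106 CPM and at 310.2 and 118 CPM. Ly6a, encoding Sca-1, and Cd209a, which both lead the cluster, stood at 366 and 99.6 CPM and at 194 and 57.6 CPM. All of these were lower in the cluster that held most of the class on both days.

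In the whole culture the 11 MHC class II genes were all above a ratio of 1 but none of the 9 that reached 10 CPM passed 2-fold (median log2 ratio 0.70). Outside the neutrophil-like clusters 5 of 9 were at least 2-fold higher (median 1.01), beside 2.95% of all genes tested there. Cd74, the invariant chain, stood at 1651 and 3278 CPM, H2-Ab1 at 456 and 769, H2-Eb1 at 299 and 578, and Ciita, the activator of the whole set, at 23.9 and 32.6. The median log2 ratio was 0.01 within the dendritic cell-like class and -0.03 at the day 3 mix of classes. H2-Ab1, H2-Aa and Cd74 are markers that named this class, so neither value is independent of the naming. Cells thinned to 3000 UMIs held H2-Ab1 in 21.1% on day 3 and 24.7% on day 4, whereas without thinning the shares were 44.4% and 41.6%. Outside the neutrophil-like clusters the thinned shares were 27.6% and 46.9%.

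**Figure D4:**
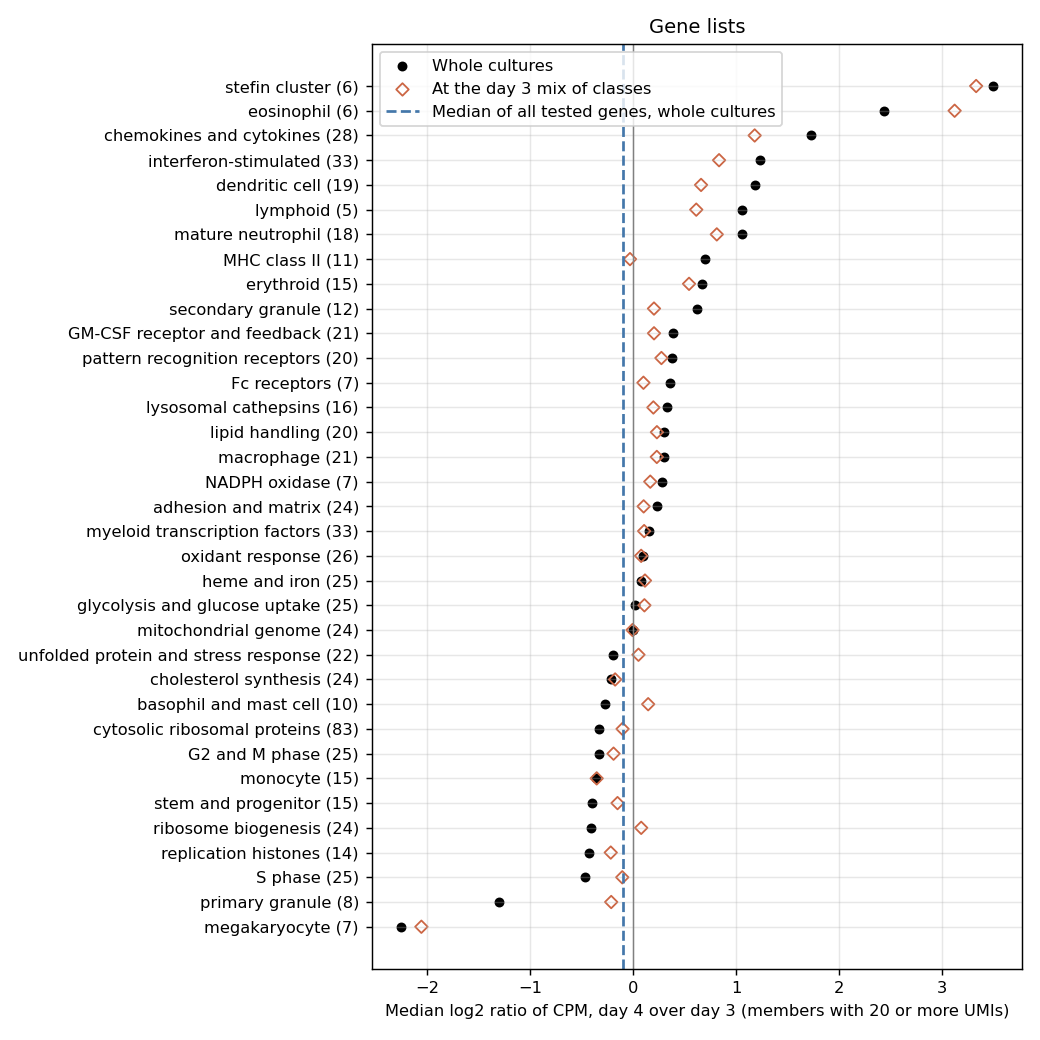
Median log2 ratio of CPM (day 4 over day 3) for each gene list, with the number of members counted in brackets. Black points are whole cultures, orange diamonds the day 4 levels at the day 3 mix of classes, and the dashed line is the median of all tested genes (-0.10). The primary granule list moves from -1.30 to -0.22 and MHC class II from 0.70 to -0.03, while the stefin list stays at 3.33. The primary granule and MHC class II lists hold markers that named classes.

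Monocyte and macrophage genes were split. The monocyte list had a median log2 ratio of -0.36, with 1 of 13 members at least 2-fold lower, Plac8, at 757 and 377 CPM. Klf4, a monocyte transcription factor, stood at 72.9 and 39.9 CPM and Vcan, versican, at 161 and 85.0 CPM, while Ly6c2 was level at 1429 and 1319 CPM. The macrophage list had a median of 0.30, with 2 of 12 members at least 2-fold higher, the scavenger receptor Msr1 at 21.0 and 47.6 CPM and the complement gene C1qb at 6.54 and 14.3 CPM. Mrc1, the mannose receptor, stood at 80.3 and 55.0 CPM. Among lipid handling genes, Cd36, a scavenger receptor for lipids, stood at 13.3 and 68.3 CPM (list median 0.30, 3 of 17 higher). Among pattern recognition receptors, 4 of 15 were higher, with Fpr1 at 6.87 and 44.7 CPM and Fpr2 at 53.8 and 171 CPM. Beside the counts of these lists, 2.48% of all tested genes were at least 2-fold higher and 0.389% lower.

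Interferon-stimulated genes were higher from a low level. Of 13 members reaching 10 CPM, 6 were at least 2-fold higher (2.48% of all tested genes) and none lower, and the median log2 ratio over 33 members was 1.23. Isg15, a ubiquitin-like modifier, stood at 3.00 CPM on day 3 and 19.0 on day 4, with UMIs in 98 and 288 cells. Rtp4 stood at 0.309 and 4.80 CPM, Rsad2, viperin, at 0.477 and 5.27, and Ifi27l2a at 29.0 and 96.7. The abundant members Bst2 (70.6 and 90.7 CPM) and Ly6e (550.3 and 544) did not pass 2-fold. The list median was 1.07 within neutrophil-like cells, 0.82 within dendritic cell-like cells and 0.09 within progenitor-like cells.

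Among myeloid transcription factors, 5 of 29 were at least 2-fold higher (2.48% of all tested genes) and none lower. They were the immediate early genes Nr4a1 (4.85 and 14.3 CPM), Egr1 (56.5 and 153), Fos (11.1 and 29.1) and Atf3 (14.8 and 32.3), and Klf2 (37.2 and 85.0). Lineage factors differed less. Spi1, encoding PU.1, stood at 438 and 467 CPM, Cebpe, which drives secondary granules, at 299.6 and 254, Gfi1, a repressor needed by granulocyte progenitors, at 20.1 and 10.2, and Myb, a factor of progenitors, at 38.9 and 22.4. The GM-CSF receptor chain Csf2rb stood at 378 and 539 CPM and the STAT5 target Cish at 148 and 165 CPM, and no member of that list passed 2-fold (median 0.38 over 21 members).

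In whole cultures, genes of growth and division were lower by less than 2-fold. All 25 S phase genes were below a ratio of 1 (median log2 ratio -0.47), as were all 25 G2 and M phase genes (-0.34) and all 24 ribosome biogenesis genes (-0.41). Of 83 cytosolic ribosomal protein genes 82 were below 1 (-0.33), and their summed share of UMIs was 20.9% on day 3 and 16.6% on day 4. Mki67 stood at 251 and 185 CPM, Dut, which clears dUTP, at 306 and 176, and the nucleolar protein Npm1 at 1494 and 1032. Mki67 was detected in 43.1% of the thinned cells on day 3 and 29.4% on day 4 (76.9% and 51.5% without thinning). At the day 3 mix of classes the medians were -0.11 for S phase, -0.19 for G2 and M phase, 0.08 for ribosome biogenesis and -0.10 for ribosomal proteins. Within progenitor-like cells they were 0.10, -0.20, 0.11 and 0.05, and within neutrophil-like cells -0.81, -0.47, -0.38 and -0.46. In neutrophil-like cells 7 of 24 S phase genes and 1 of 14 replication histone genes were at least 2-fold lower, where 0.886% of all tested genes were. Glycolysis genes (median 0.02) and mitochondrial genes (-0.00) were level.

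Heme, iron and oxidant genes were mostly level in this culture, which was given no heme. Of 21 heme and iron genes 1 was at least 2-fold higher, Slc11a1, a phagosomal metal transporter, at 1.52 and 10.3 CPM, and Hmox1, heme oxygenase 1, stood at 36.0 and 62.3 CPM. Of 24 oxidant response genes 1 was higher, the cystine transporter Slc7a11, at 33.0 and 119 CPM. Gclm stood at 217 and 175 CPM and Nqo1 at 14.2 and 21.0 CPM. The list medians were 0.08 and 0.09, and over all tested genes 2.48% were at least 2-fold higher.

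Several differences of rarer lineages rested on very few cells. Pf4, platelet factor 4, stood at 69.9 CPM on day 3 and 16.7 CPM on day 4 (ratio 0.239, 0.217 to 0.263), but 1 cell held 53.5% of its day 3 UMIs and 3 cells held 92.3%. Without the top cell of each day the ratio was 0.451, and more cells carried a UMI on day 4 (255) than on day 3 (167). Without top cells, the megakaryocyte list had a median log2 ratio of -0.42 in place of -2.25. Prg2, the major basic protein of eosinophils, stood at 1.99 and 24.6 CPM, and 2 cells held 50% of its day 4 UMIs. For Epx, eosinophil peroxidase, 1 cell held 53.2% of the day 4 UMIs. Hbb-bs, a hemoglobin chain that marks red cell precursors, stood at 70.4 and 114 CPM, with 3 cells holding 50% of the UMIs on either day. The eosinophil, megakaryocyte and erythroid lists are therefore given as values of few cells. The stem and progenitor list had a median of -0.40 with none of 4 abundant members past 2-fold.

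UMIs of neutrophil genes in other cells were followed as well, since RNA free in the suspension is counted in every droplet. S100a8 stood at 411 CPM on day 3 and 720 CPM on day 4 in cluster 15 and at 1653 and 3145 CPM in cluster 16, against 135160 and 142610 CPM in cluster 10. Ngp stood at 46.6 and 48.6 CPM in cluster 15. The part of such RNA in the differences between days was not tested.

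Set beside the other days of the same library, the difference between days 3 and 4 stood within longer courses. Comparisons of day 4 with days 3 and 5 share the day 4 cells. Over days 0, 3, 4, 5 and 7, Elane stood at 1446, 2465, 694, 175 and 26.0 CPM. Retnlg stood at 28.0, 42.5, 194, 36.9 and 6.04 CPM on these days, highest on day 4. Cstdc5 stood at 22.8, 446, 662 and 53.5 CPM from day 3 on, highest on day 5, and Ccl17 at 36.3, 526, 2219, 4897 and 5108 CPM, highest on day 7. The summed secondary granule genes stood at 476, 18860.5, 27344, 12072 and 1107 CPM, and the summed MHC class II genes at 375, 3217, 5942, 12331 and 16925 CPM. On day 3 of the heme library Elane stood at 1639 CPM, Ctsg at 204, Retnlg at 38.8, Cxcl2 at 55.7, Thbs1 at 244 and Ccl17 at 584. Against those cells the balance over all genes turned over, with 123 higher and 383 lower on day 4. Of the 25 genes named here for the largest rises and falls, 20 were at least 2-fold apart and all 25 had the same direction. Ctsg, Ms4a3, Pf4, Psph and Cxcl2 were not 2-fold apart.

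**Figure D5:**
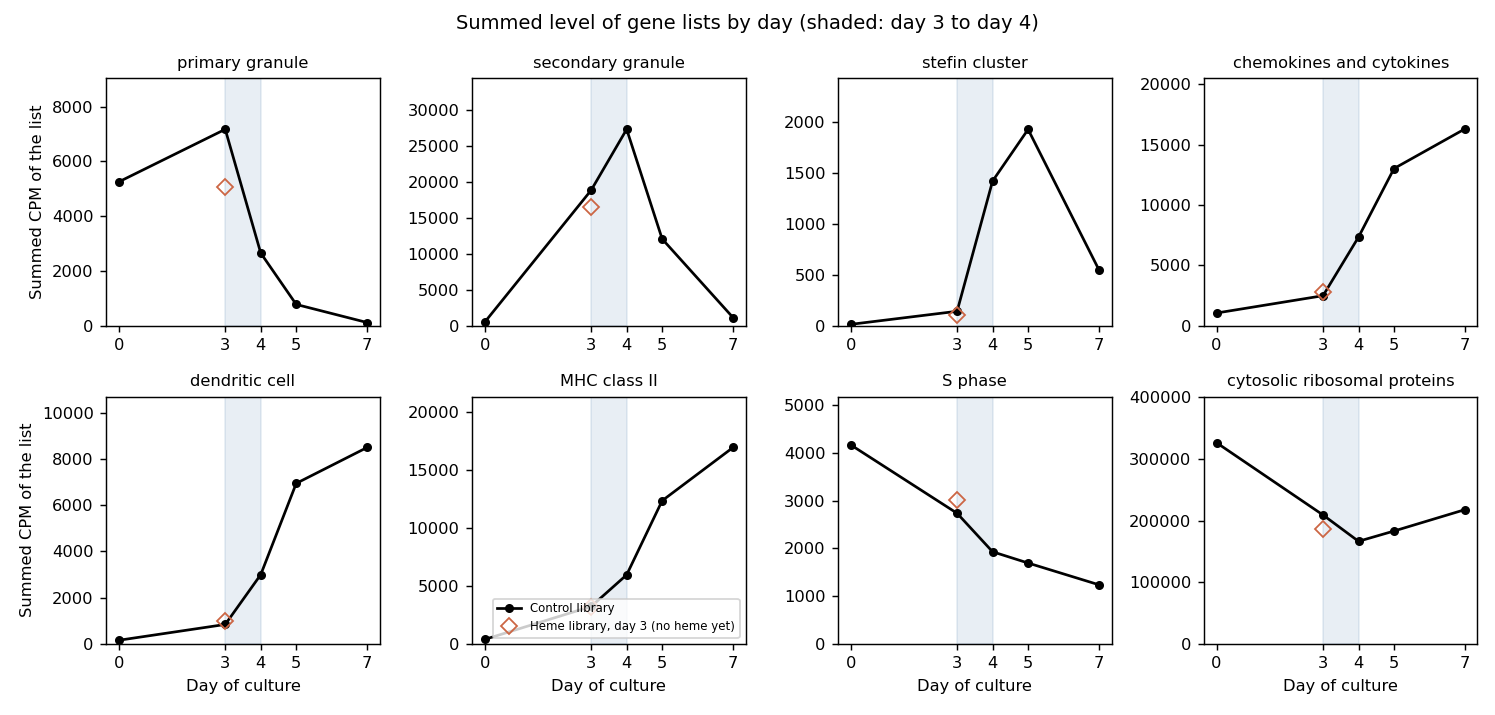
Summed CPM of 8 gene lists on days 0, 3, 4, 5 and 7 of the control library (black line) and on day 3 of the heme library before heme (orange diamond), with the interval from day 3 to day 4 shaded. Primary granule genes drop and stefin, chemokine and dendritic cell genes climb over this interval, and secondary granule genes are highest on day 4.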

How the data were processed

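Gene counts (UMIs per gene and cell barcode) of 2 libraries, 1 per arm, were deposited as made by the authors with Cell Ranger (version 4.0.0 in the submitters' processing notes) on GRCm38.p6, together with their hashtag calls from Seurat 3.2.3 (positive quantile 0.99), through which doublets of different days were removed; doublets within a day were not sought. The file headers of the matrices name another Cell Ranger version. No deposited value was altered and 0 per-sample columns were left unused.

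Barcodes called Singlet with a day 3 or day 4 hashtag, 500 or more genes and under 15% mitochondrial UMIs were kept, and counts were summed per culture and scaled to the same total in each culture (CPM). Totals of 31686612 and 35641351 UMIs set the precision. Ratios carry exact conditional binomial intervals and shares Clopper-Pearson intervals (95%). A gene was tested for a 2-fold difference if it reached 10 CPM in either culture, and list medians used members with 20 or more UMIs. Named genes were those of 50 CPM or more with the largest log2 ratios after adding 10 CPM (at most 15 each way, interval wholly past 2-fold), members of each list with the largest differences or that define a cell type, and the largest differences within classes; genes followed per cluster and over days, and a few others, were chosen after their values were seen. The gene lists, markers, motifs and comparison were chosen with earlier results of these data known.

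Cells were scaled with scran 1.30.0, and 2000 variable genes, 15 principal components and Leiden clustering at resolution 1 (leidenalg 0.10.2) gave the clusters. A cluster was named for a class with at least 3 raised markers, if no other class had more of the cluster's leading genes. It also needed at least 2 times the raised markers of the next class, or 3 leading genes against at most 1 of any other class. Clusters with 3 or more raised markers could thus stay unnamed. For detection shares, cells were thinned to 3000 UMIs, which left out 22 cells of day 3 and 102 of day 4. Alternatives were edgeR 4.0.16 (TMM) and DESeq2 1.42.0 size factors, other filters, other clusterings, and leaving out each gene's top cell. The 2-fold call and its interval were also run on simulated counts that held counting error only. Such counts hold no variation between cells or cultures, so they do not check the genes found here.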

Additional observations from a re-analysis of the deposited data

How the results depend on the processing

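All 25 genes named for the largest differences kept their direction under 8 alternatives of filters, scaling, baseline and top cells. They were picked for large ratios in these same counts, and every alternative draws on the same day 4 cells. Keeping the direction is therefore no independent check. The 25 genes stayed past 2-fold in all of these except against day 3 of the heme library, where 20 did. Ctsg, Ms4a3, Pf4, Psph and Cxcl2 did not. With that baseline 123 genes were higher and 383 lower, and list medians (log2) were -0.71 for primary granule, 0.71 for dendritic cell, 0.77 for MHC class II, 1.07 for chemokine and -0.15 for ribosomal protein genes. Medians of the erythroid (-0.62), basophil and mast cell (0.18), GM-CSF receptor (-0.088) and oxidant response (-0.030) lists changed sign. Averaging over cells in place of summing gave 59 lower genes and medians of -1.61 for primary granule, 1.28 for mature neutrophil, 0.89 for dendritic cell, 0.33 for MHC class II, 1.46 for chemokine and -0.58 for ribosomal protein genes. TMM and DESeq2 size factors gave -1.23 for primary granule and -0.27 for ribosomal protein genes, and the study's own gene and ribosomal limits gave -1.38, 0.49 (MHC class II) and -0.39. Without the CPM minimum, 565 genes were higher and 237 lower. The dendritic cell-like difference was 8.54 points at resolution 0.5, 4.99 with 30 components, 5.03 with the study's limits and 5.09 by marker score. The progenitor-like one was -15.4 points with cell cycle genes left out, -14.9 with the study's limits and -16.2 by marker score, and the neutrophil-like one 29.7 with the study's limits. Without thinning, shares of cells with a UMI of Ccl17 (-1.06 points), H2-Ab1 (-2.75) and Cd74 (-6.57) were lower on day 4 rather than higher. The day 3 mixes were not among the 8 alternatives, and they rest on clusters formed and named in part from the same genes. At the mix of classes 85 of the 185 higher and 12 of the 29 lower genes stayed past 2-fold, and at the mix of clusters 56 and 11. Elane, Prtn3, Mpo and Ctsg did not stay past 2-fold at the mix of classes, and Retnlg changed direction at the mix of clusters. Leaving out top cells and weighting by clusters were chosen after seeing the data. The causes were not tested. No paired analysis was possible because each day was 1 culture without replicates. The depth limits rare genes and cells, since a low gene can rest on 1 cell.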
